A study of Mus musculus with 63 samples.

Results

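Newborn neurons of the dorsal cortex of Ski knock-out mouse embryos were compared between embryonic day 18.5 (E18.5), with 3 libraries, and E17.5, with 4 libraries, out of 63 libraries of bulk RNA sequencing. Both groups carry the same genotype (Ski knock-out), background (C57Bl/6) and reporter (Tbr2::GFP), so they differ by day of gestation, and nothing here describes an effect of losing Ski. The members are the columns named NBN at these days, with all 23078 genes of the table, of which 15231 reached 1 TPM (transcript abundance scaled to the same total in each library) in at least 3 libraries and were tested. GFP-positive cells were sorted from dissociated cortex, and Tbr2 is the protein of Eomes, so the reporter is switched on in the progenitors that give rise to these neurons. The sources used here do not say how newborn neurons (NBN) were told apart from basal progenitors (BP), which came from the same line. Neural stem cells (NSC), set beside them below, came from the Hes5::GFP line. The labels do not state whether the replicates are different embryos. The p-values rest on a spread pooled over all 63 libraries in 19 groups, and that spread may be technical.

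Projection neurons of the cortex arise from radial glia, mostly through basal progenitors that express Eomes, and deep-layer neurons are born before upper-layer neurons. A newborn neuron has left the cell cycle, loses Eomes, migrates outward, extends an axon and then acquires the channels and receptors of a signalling cell. The days before birth are the time of late upper-layer neurons and of the first glia in the mouse.

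Tubb3, the neuronal beta-tubulin, was high in all 7 libraries. The knock-out label could not be checked from the values, and 5 libraries went against their label of sex. Ski, the targeted gene, was listed at 40.8, 42.6 and 43.3 TPM at E18.5, against 53.1, 43.4, 39.0 and 36.7 TPM at E17.5 (log2 change -0.013 ± 0.15 SE). Which part of Ski was deleted is not stated, so this level checks no label. Tubb3 was at 3516, 3716 and 3849 TPM at E18.5, against 3830.1, 3803, 4318 and 3504 TPM at E17.5, and Mki67, a gene of dividing cells, at 3.99 to 7.14 TPM at E18.5, against 3.01 to 5.90 TPM at E17.5. One library stood apart, E17.5 replicate 1, in which the 13 genes encoded by the mitochondrial genome summed to 100526 TPM, against 54635 to 59646 TPM at E18.5 and 48468 to 61163 TPM in the other E17.5 libraries. Among earlier newborn neuron libraries this sum was 92231 to 109122 TPM at E15.5 and 101955 TPM in E16.5 replicate 1, and its part in the changes from those days given below was not tested. Correlations of log2(TPM + 1) were 0.9934 to 0.9956 within E18.5, 0.9765 to 0.993 within E17.5 and 0.9806 to 0.9931 between the days. The labels give every library as female. Xist, expressed from the inactive X, was at 204 TPM in E18.5 replicate 1 and 234 TPM in E17.5 replicate 1, and the Y-linked gene Ddx3y was at 6.32 to 14.4 TPM in the other 5 libraries. With the Y-linked level as a term in the model, adjusted p was 0.0038 for Rgs16 and 0.020 for Rasgrf2, the called genes described next.

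Few genes separated the days. With calls at a Benjamini-Hochberg adjusted p under 0.05 in limma and a change of 2-fold or more, 1 gene was higher at E18.5 (0.00657% of the genes tested) and 1 was lower (0.00657%). The gene that rose was Rasgrf2, a calcium-regulated exchange factor that activates Ras and marks upper-layer neurons in the mouse. The gene that fell was Rgs16, a regulator of G-protein signalling that speeds the shut-off of heterotrimeric G proteins. By adjusted p alone 2 genes were higher (0.0131%) and 1 was lower (0.00657%), the added one being Pgr, the progesterone receptor, at 1.39, 1.199 and 1.27 TPM at E18.5, against 0.937, 0.304, 0.712 and 0.473 TPM at E17.5 (log2 change 0.52 ± 0.11, adjusted p = 0.045).

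The median gene had a log2 change of 0.041, and 59.8% of genes had a positive change. At an unadjusted p under 0.05 there were 466 genes with a positive (3.06%) and 172 with a negative change (1.13%). Together these shares lie below the 0.05 of genes that this threshold is meant to pass when no gene differs. A difference of 2-fold at any p was seen for 20 genes (0.131%) toward E18.5 and 15 genes (0.0985%) toward E17.5. In 1381 genes (9.07%) every E18.5 library lay above every E17.5 library, and in 503 genes (3.3%) below. When leaving out 1 library, 55.6% to 63.9% of genes had a positive change, with a median of 0.026 to 0.053, and at an unadjusted p under 0.05 there were 269 to 608 positive and 101 to 234 negative changes. Sequencing depth is unknown from TPM.

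**Figure D1:**
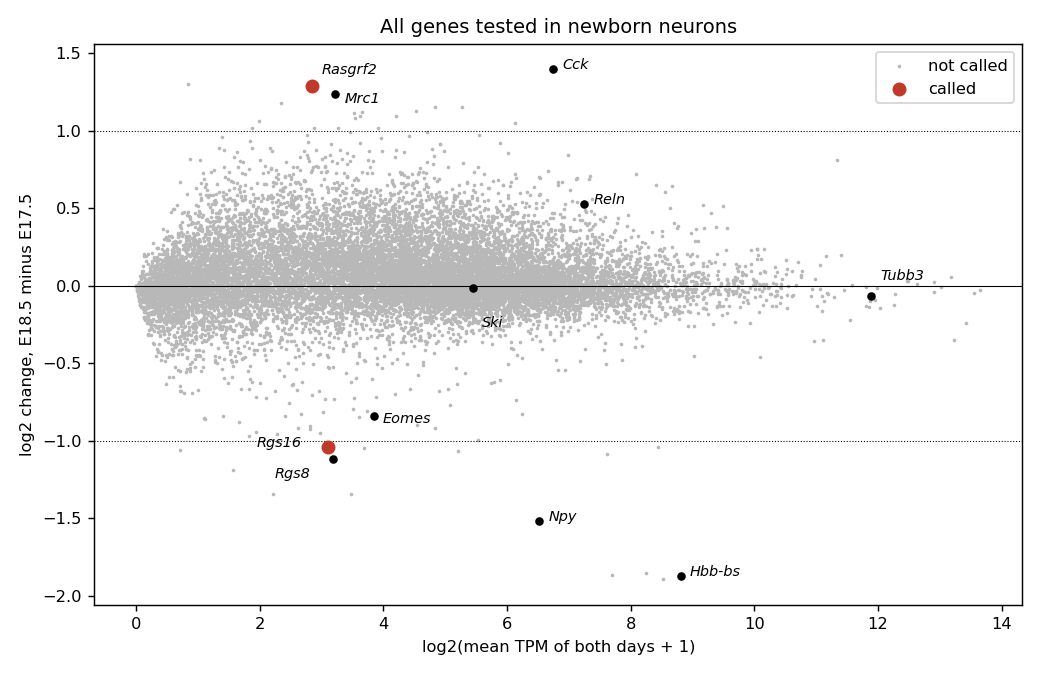
Log2 change of newborn neurons, E18.5 minus E17.5, against log2(mean TPM of both days + 1), with 1 point for each of 15231 genes and dotted lines at a 2-fold change. The called genes are in red, Rasgrf2 at 1.29 and Rgs16 at -1.04, and larger changes such as those of Hbb-bs (-1.87), Npy (-1.52) and Cck (1.40) were not called.

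The start regions of the called genes are shown because the comparison turns on these genes. Both matched the RefSeq promoter table (build GRCm38.p6), which gives 300 bases, from 250 before to 50 after the annotated start, read along the gene. Capitals mark E-boxes (CANNTG), the letters bound by basic helix-loop-helix factors, and CCAAT boxes (CCAAT, or ATTGG on the other strand), searched on both strands.
Rgs16, chr1:153740103-153740402, plus strand: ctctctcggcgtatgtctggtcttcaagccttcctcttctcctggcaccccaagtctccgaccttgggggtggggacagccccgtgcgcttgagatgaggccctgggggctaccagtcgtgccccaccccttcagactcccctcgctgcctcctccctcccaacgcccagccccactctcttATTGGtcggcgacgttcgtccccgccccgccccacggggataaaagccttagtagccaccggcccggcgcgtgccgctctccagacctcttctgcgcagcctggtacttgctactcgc
Rasgrf2, chr13:92131779-92132078, minus strand: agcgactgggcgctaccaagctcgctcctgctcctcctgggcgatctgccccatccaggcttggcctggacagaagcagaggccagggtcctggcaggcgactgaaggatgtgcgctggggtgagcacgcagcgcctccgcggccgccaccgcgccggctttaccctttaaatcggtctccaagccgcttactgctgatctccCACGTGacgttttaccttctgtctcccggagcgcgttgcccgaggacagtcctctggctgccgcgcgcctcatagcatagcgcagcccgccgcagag
The Rgs16 window held 0 E-boxes and 1 CCAAT box, and the Rasgrf2 window 1 E-box and 0 CCAAT boxes. Of 32851 promoters of this length in the table, 72.3% held an E-box and 37.4% a CCAAT box. Neither window held TATAAA, found in 13.6% of promoters. Bases C and G made up 66% of each window.

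Rasgrf2 (ENSMUSG00000021708.10) was at 9.42, 6.14 and 11.7 TPM at E18.5, against 4.22, 1.35, 4.95 and 2.54 TPM at E17.5. Every E18.5 library lay above every E17.5 library. The log2 change was 1.29 ± 0.24 (SE, 95% interval 0.80 to 1.77), a 2.44-fold difference on the TPM + 1 scale, with an adjusted p of 0.019 in limma. By day it averaged 0.595 TPM at E15.5, 0.759 at E16.5, 3.27 at E17.5 and 9.08 at E18.5. The log2 change was 0.12 ± 0.26 over the first of these steps (adjusted p = 0.83 in limma) and 1.23 ± 0.24 over the second (adjusted p = 0.015), which shares the E17.5 libraries with the last step. In BP, Rasgrf2 was near 0, at 0.0737 to 0.133 TPM at E18.5, against 0.179 to 1.22 TPM at E17.5. The change in NBN exceeded that in BP by 1.77 ± 0.34, which had the smallest adjusted p of that test, 0.064, and did not pass. That test did not pair same-numbered NBN and BP libraries of a day. With such pairs as blocks, added after the data were seen, the smallest adjusted p over all genes was 0.97 in limma. In NSC it was at 0.980 to 4.67 TPM at E18.5, against 1.25 to 2.92 TPM at E17.5, and the change in NBN exceeded that in NSC by 1.07 ± 0.35 (adjusted p = 0.035 in limma). The call was lost without E18.5 replicate 1 (adjusted p = 0.33), E18.5 replicate 3 (0.29), E17.5 replicate 2 (0.20) or E17.5 replicate 4 (0.1), at log2 changes of 1.03 to 1.25. It was also lost at a pseudocount of 0.1 (log2 change 1.55, adjusted p = 0.999). At a pseudocount of 5 it was lost only through a log2 change of 0.77, under 2-fold (adjusted p = 4.0e-05 in limma).

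Rgs16 (ENSMUSG00000026475.7) was at 4.21, 6.18 and 3.55 TPM at E18.5, against 10.7, 7.52, 12.1 and 11.8 TPM at E17.5. Every E18.5 library lay below every E17.5 library, replicate 2 of each day being nearest to the other. The log2 change was -1.04 ± 0.17 (SE, 95% interval -1.38 to -0.69), a ratio of 0.487 on the TPM + 1 scale, with an adjusted p of 0.0038 in limma. By day Rgs16 averaged 89.9 TPM at E15.5, 26.8 at E16.5, 10.5 at E17.5 and 4.65 at E18.5. The earlier steps had log2 changes of -1.71 ± 0.18 (adjusted p = 5.1e-08 in limma) and -1.28 ± 0.17 (adjusted p = 2.6e-05), so the gene was called over each of the 3 steps. In BP it was at 12.99 to 14.7 TPM at E18.5, against 17.8 to 24.6 TPM at E17.5 (log2 change -0.63 ± 0.17, adjusted p = 0.45), and the difference between the changes in NBN and BP was -0.41 ± 0.24 (adjusted p = 1.000). In NSC it was at 13.6 to 21.0 TPM at E18.5, against 12.8 to 13.2 TPM at E17.5, and the difference between the changes in NBN and NSC was -1.44 ± 0.25 (adjusted p = 0.00011 in limma). The call was lost without E18.5 replicate 1 (adjusted p = 0.12) or replicate 3 (0.11), and without E17.5 replicate 3 or 4 through log2 changes of -0.97 and -0.98, just under 2-fold. With the spread taken from the 7 libraries alone, adjusted p was 0.40 for Rgs16 and 0.40 for Rasgrf2.

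Rgs8, another regulator of G-protein signalling, is the protein-coding gene next to Rgs16 on chromosome 1, with 42683 bases and 1 long non-coding gene between them (RefSeq, GRCm38.p6). It was at 3.93, 9.25 and 2.11 TPM at E18.5, against 9.85, 6.997, 13.6 and 13.7 TPM at E17.5. E18.5 replicate 2 lay inside the E17.5 range and the other E18.5 libraries below it, and the log2 change of -1.116 ± 0.31 did not pass (adjusted p = 0.39 in limma). By day Rgs8 averaged 77.8 TPM at E15.5, 30.03 at E16.5, 11.1 at E17.5 and 5.10 at E18.5, with called changes over the earlier steps of -1.33 ± 0.33 and -1.40 ± 0.31. Npl, on the other side of Rgs8, had no called change over any step and averaged 3.80 TPM at E15.5, 2.53 at E16.5, 3.03 at E17.5 and 3.41 at E18.5. Rgs8 and Npl were chosen after their values were seen.

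**Figure D2:**
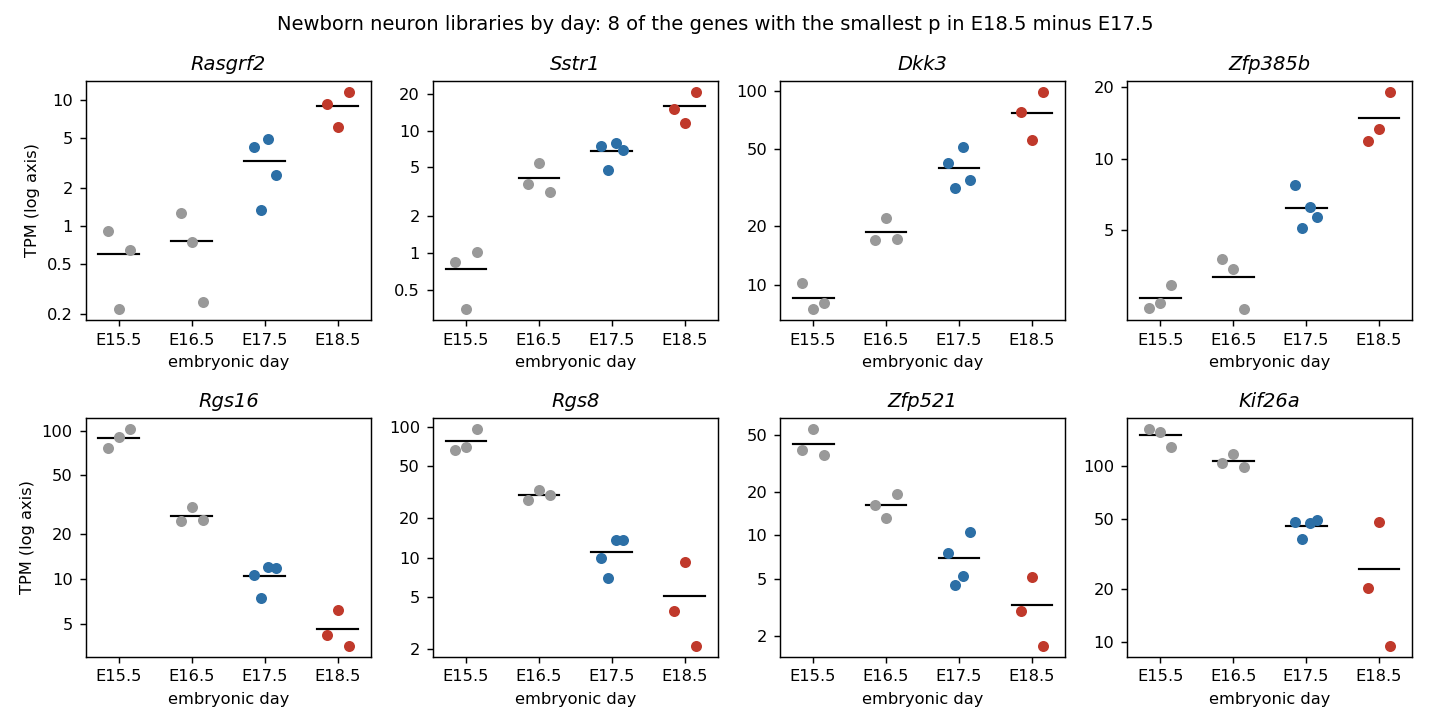
TPM on a log axis in each of 13 newborn neuron libraries by embryonic day, for 8 of the genes with the smallest p between E18.5 (red) and E17.5 (blue), with earlier days in grey and lines at the means. Rasgrf2 is at 6.14 to 11.7 TPM at E18.5, against 1.35 to 4.95 TPM at E17.5, and for Rgs8 and Kif26a the second E18.5 library lies among the E17.5 libraries.

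Beyond the called genes, those of smallest p are given as values. They were chosen after their values were seen and none passed. A choice by smallest p favours genes whose days do not overlap, so lack of overlap is no further support for them. Over all genes, every E18.5 library lay above every E17.5 library in 9.07% and below in 3.3%. Dkk3, a secreted Dickkopf-family protein, was at 77.1, 55.5 and 98.5 TPM at E18.5, against 42.4, 31.4, 51.3 and 34.4 TPM at E17.5 (log2 change 0.92 ± 0.22, adjusted p = 0.17 in limma). Sstr1, a somatostatin receptor, was at 14.96, 11.6 and 20.7 TPM at E18.5, against 7.45, 4.74, 7.93 and 6.98 TPM at E17.5 (1.09 ± 0.30, adjusted p = 0.37). For both genes all E18.5 libraries lay above all E17.5 libraries, and both had a called increase from E15.5 to E16.5 (log2 change 1.05 ± 0.24 for Dkk3 and 1.54 ± 0.32 for Sstr1). Zfp385b, a zinc-finger gene, was at 11.9, 13.3 and 19.1 TPM at E18.5, against 7.77, 5.11, 6.28 and 5.70 TPM at E17.5 (1.118 ± 0.28, adjusted p = 0.20). Hdac9, a class IIa histone deacetylase, was at 8.30, 6.99 and 8.47 TPM at E18.5, against 4.66, 2.07, 4.22 and 3.68 TPM at E17.5 (0.97 ± 0.25, adjusted p = 0.26). The libraries of the 2 days again did not overlap in either gene. Abhd5, a co-activator of fat breakdown, had a smaller difference with little spread, at 20.9, 21.3 and 21.95 TPM at E18.5, against 13.1, 15.7, 16.2 and 15.6 TPM at E17.5 (0.48 ± 0.11, adjusted p = 0.11). The libraries also did not overlap for Dusp19, a phosphatase gene (0.55), Rgl1, an exchange factor for Ral (0.48), Foxo1, a transcription factor under insulin control (0.55), Pcdh20, a protocadherin (0.82), Grik4, a kainate receptor subunit (0.71), and Epha6, an ephrin receptor (0.77).

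Among negative changes, Zfp521, a zinc-finger gene of early neural differentiation, was at 2.97, 5.17 and 1.71 TPM at E18.5, against 7.52, 4.55, 5.19 and 10.6 TPM at E17.5 (log2 change -0.92 ± 0.25, adjusted p = 0.38 in limma). Its changes over the earlier steps were called, at -1.35 ± 0.27 and -1.16 ± 0.25. Kif26a, an atypical kinesin, was at 20.3, 48.1 and 9.48 TPM at E18.5, against 47.7, 38.6, 47.4 and 49.3 TPM at E17.5 (-1.07 ± 0.30, adjusted p = 0.44). E18.5 replicate 2 lay within the E17.5 range for both genes. Without that library Rgs8 (-1.58) and Kif26a (-1.64) were called beside Rgs16. Without E18.5 replicate 3 their changes were smaller, at -0.72 for Rgs8 and -0.53 for Kif26a, and neither was called. Ldb1, a cofactor of LIM-domain factors, was at 230.2, 244 and 237 TPM at E18.5, against 336, 335, 269 and 267 TPM at E17.5, without overlap (-0.34 ± 0.10, adjusted p = 0.52).

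Genes of upper and deep cortical layers were counted as lists. Over all genes, 59.8% had a positive change, and 3.06% had a positive and 1.13% a negative one at an unadjusted p under 0.05. Of 24 upper-layer genes tested, 1 was called higher, Rasgrf2, and 0 lower, and 20 had a positive change, with a median of 0.20 beside 0.041 over all genes. That median was 0.33 without E17.5 replicate 1, and the list summed to 4013, 3531 and 3954 TPM at E18.5, against 4069, 2978, 3340.3 and 2830.0 TPM at E17.5, so this E17.5 library lay above every E18.5 library. Mef2c, an activity-regulated transcription factor, was at 373, 288 and 319 TPM at E18.5, against 314, 108, 257 and 172 TPM at E17.5 (0.72 ± 0.49). E17.5 replicate 1 lay within the E18.5 range. Of 23 deep-layer genes 0 were called in limma and 9 had a positive change, with a median of -0.36. At an unadjusted p under 0.05, 1 was positive and 5 were negative (0 to 1 and 0 to 8 when leaving out 1 library). Changes ranged from -1.04 ± 0.38 (Syt6) to 1.08 ± 0.43 (Tshz2). The median was -0.15 without E17.5 replicate 1, -0.58 without E18.5 replicate 2 and -0.086 without E18.5 replicate 3. Bcl11b, which directs subcerebral projection, was at 49.2, 88.8 and 36.8 TPM at E18.5, against 109, 48.0, 58.3 and 80.0 TPM at E17.5 (-0.36 ± 0.41). Fezf2, which specifies subcerebral neurons, was at 47.4, 87.3 and 32.6 TPM at E18.5, against 120.3, 72.6, 86.4 and 93.7 TPM at E17.5 (-0.82 ± 0.36, adjusted p = 0.999). E18.5 replicate 2 lay inside the E17.5 range for both genes, and E18.5 replicate 1 also for Bcl11b. The deep-layer genes summed to 1186, 1589.7 and 1021 TPM at E18.5, against 1874, 1064, 1468 and 1509.6 TPM at E17.5. Over the whole span from E15.5 to E18.5 the log2 change was called for Bcl11b (-2.32 ± 0.43) and for Eomes (-2.76 ± 0.43). The mitochondrial sums were 54635 to 59646 TPM at E18.5, against 92231 to 109122 TPM at E15.5, and their part in these changes was not tested. Fezf2, Syt6 and Tshz2 were picked after their values were seen.

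Genes of electrical and synaptic function had mostly positive changes and no call, beside 59.8% positive changes over all genes. In the summed TPM of the 3 lists of channels and receptors, E17.5 replicate 1 lay above every E18.5 library. Of 41 voltage-gated channel genes 0 were called in limma and 39 had a positive change (median 0.31, with 4 with a positive and 0 with a negative change at an unadjusted p under 0.05, beside 3.06% and 1.13% of all genes). When leaving out 1 library, 35 to 40 of them were positive and the counts at that p were 1 to 5 and 0. They summed to 1069, 1024 and 1020.3 TPM at E18.5, against 1075, 821, 854 and 835 TPM at E17.5. Kcnj2, an inward rectifier potassium channel, was at 15.4, 11.6 and 11.5 TPM at E18.5, against 10.001, 4.37, 7.68 and 6.36 TPM at E17.5 (0.81 ± 0.25, adjusted p = 0.66). Of 19 genes of GABA and glycine receptors and chloride carriers 0 were called and 15 were positive (median 0.36, with 5 with a positive and 0 with a negative change at an unadjusted p under 0.05). Without E17.5 replicate 2 that median was 0.24, and the counts at that p were 2 to 8 and 0 when leaving out 1 library. These genes summed to 814, 781 and 792 TPM at E18.5, against 826, 549, 669 and 684 TPM at E17.5. Gabra2, a GABA receptor subunit, was at 75.4, 34.9 and 45.4 TPM at E18.5, against 42.1, 16.8, 16.7 and 18.3 TPM at E17.5 (1.15 ± 0.54, adjusted p = 0.999), with E17.5 replicate 1 in the E18.5 range. Gabrb1, another subunit, was at 7.43, 6.40 and 6.38 TPM at E18.5, against 5.39, 1.79, 4.69 and 3.41 TPM at E17.5 (0.75 ± 0.22, adjusted p = 0.52), without overlap. Of 25 glutamate receptor genes 0 were called and 19 were positive (median 0.21, range -0.90 to 0.71). At an unadjusted p under 0.05, 2 had a positive and 1 had a negative change. The list had a median of 0.35 without E17.5 replicate 1. It summed to 641, 626 and 603 TPM at E18.5, against 731, 495, 505 and 482 TPM at E17.5. Grin2a, an NMDA receptor subunit of maturing synapses, was at 1.59, 1.24 and 2.08 TPM at E18.5, against 0.847, 0.477, 0.590 and 0.587 TPM at E17.5 (0.69 ± 0.16, adjusted p = 0.17), without overlap. Presynaptic (median 0.10, 30 genes), postsynaptic (0.13, 25 genes), axon guidance (0.17, 59 genes) and cytoskeletal lists (0.065, 28 genes) had 0 calls each. Without E17.5 replicate 1 the medians were 0.21 for the postsynaptic and 0.33 for the axon guidance list, without E17.5 replicate 2 they were 0.068 and 0.075, and without E17.5 replicate 4 that of the cytoskeletal list was 0.029. Gap43, a growth-cone protein, was at 715, 752 and 697 TPM at E18.5, against 634, 543, 668 and 659.8 TPM at E17.5, without overlap (0.21 ± 0.31). Kcnj2, Gabra2, Gabrb1 and Grin2a were picked after their values were seen.

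Neuropeptide genes ranged from -1.52 to 1.40 over 19 genes, with 0 called in limma (3 with a positive and 1 with a negative change at an unadjusted p under 0.05, beside 3.06% and 1.13% of all genes). Npy, neuropeptide Y, was at 39.0, 79.8 and 22.4 TPM at E18.5, against 176, 55.4, 202 and 104 TPM at E17.5 (-1.52 ± 0.52, adjusted p = 0.79), and the days overlapped through replicate 2 of each. Cck, cholecystokinin, was at 119, 83.5 and 274 TPM at E18.5, against 59.6, 42.9, 64.1 and 46.4 TPM at E17.5 (1.40 ± 0.47, adjusted p = 0.73), each E18.5 library above each E17.5 library and E18.5 replicate 3 far above the rest. Sst, the somatostatin of interneurons, was at 5.13, 5.14 and 2.87 TPM at E18.5, against 14.6, 4.44, 9.17 and 35.5 TPM at E17.5 (-1.34 ± 0.78). The 24 interneuron genes had a median of -0.35 (-0.22 without E17.5 replicate 4) and 0 calls, and summed to 136, 132 and 129.9 TPM at E18.5, against 183, 122, 136 and 215 TPM at E17.5. Their part in the values of Npy was not tested. Cck and Sst were picked after their values were seen.

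Progenitor, glial and cell cycle genes had no calls, beside 0.00657% of all genes in each direction. Of 23 basal progenitor genes, 1 had a positive and 4 a negative change at an unadjusted p under 0.05, beside 3.06% and 1.13%. When leaving out 1 library these counts were 0 to 1 and 0 to 6. Every E18.5 library lay below every E17.5 library in 5 of the 23 and above in 0, beside 3.3% and 9.07% of all genes. Eomes was at 10.1, 12.3 and 6.13 TPM at E18.5, against 18.5, 19.5, 14.8 and 16.2 TPM at E17.5, without overlap but not called (-0.84 ± 0.40, adjusted p = 0.999 in limma). In BP it was at 425 to 463 TPM at E18.5, against 472 to 656 TPM at E17.5. The medians, each followed by its range when leaving out 1 library, were -0.12 (-0.15 to -0.058) for 23 basal progenitor genes, -0.031 (-0.14 to 0.11) for 26 radial glia genes, -0.0044 (-0.086 to 0.090) for 23 astrocyte genes, -0.12 (-0.18 to -0.048) for 23 genes of S phase and -0.054 (-0.18 to 0.084) for 24 of G2 and M phase. Hes5, a Notch target of stem cells, was at 4.88, 4.37 and 4.09 TPM at E18.5, against 2.14, 4.51, 4.42 and 5.28 TPM at E17.5 (0.14 ± 0.42). Gfap, an astrocyte filament gene, was at 2.02, 2.04 and 1.61 TPM at E18.5, against 1.04, 0.982, 2.01 and 4.12 TPM at E17.5 (0.038 ± 0.27, and below 0 under quantile scaling). Lists of hypoxia and glycolysis (median and the same range 0.066, 0.031 to 0.094), p53 response (0.079, 0.038 to 0.12), unfolded protein response (0.055, -0.0098 to 0.060), cholesterol synthesis (0.17, 0.12 to 0.22), ribosomal proteins (-0.022, -0.17 to 0.035) and Ski partners (-0.013, -0.020 to 0.091) also had 0 calls. Of the 23 cholesterol genes 21 had a positive change (19 to 22 when leaving out 1 library), beside 59.8% of all genes. At an unadjusted p under 0.05, 5 were positive and 0 negative, beside 3.06% and 1.13% of all genes. When leaving out 1 library these counts were 1 to 8 and 0. The cholesterol genes summed to 3097 to 3457 TPM at E18.5, against 2459 to 3022 TPM at E17.5, without overlap.

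**Figure D3:**
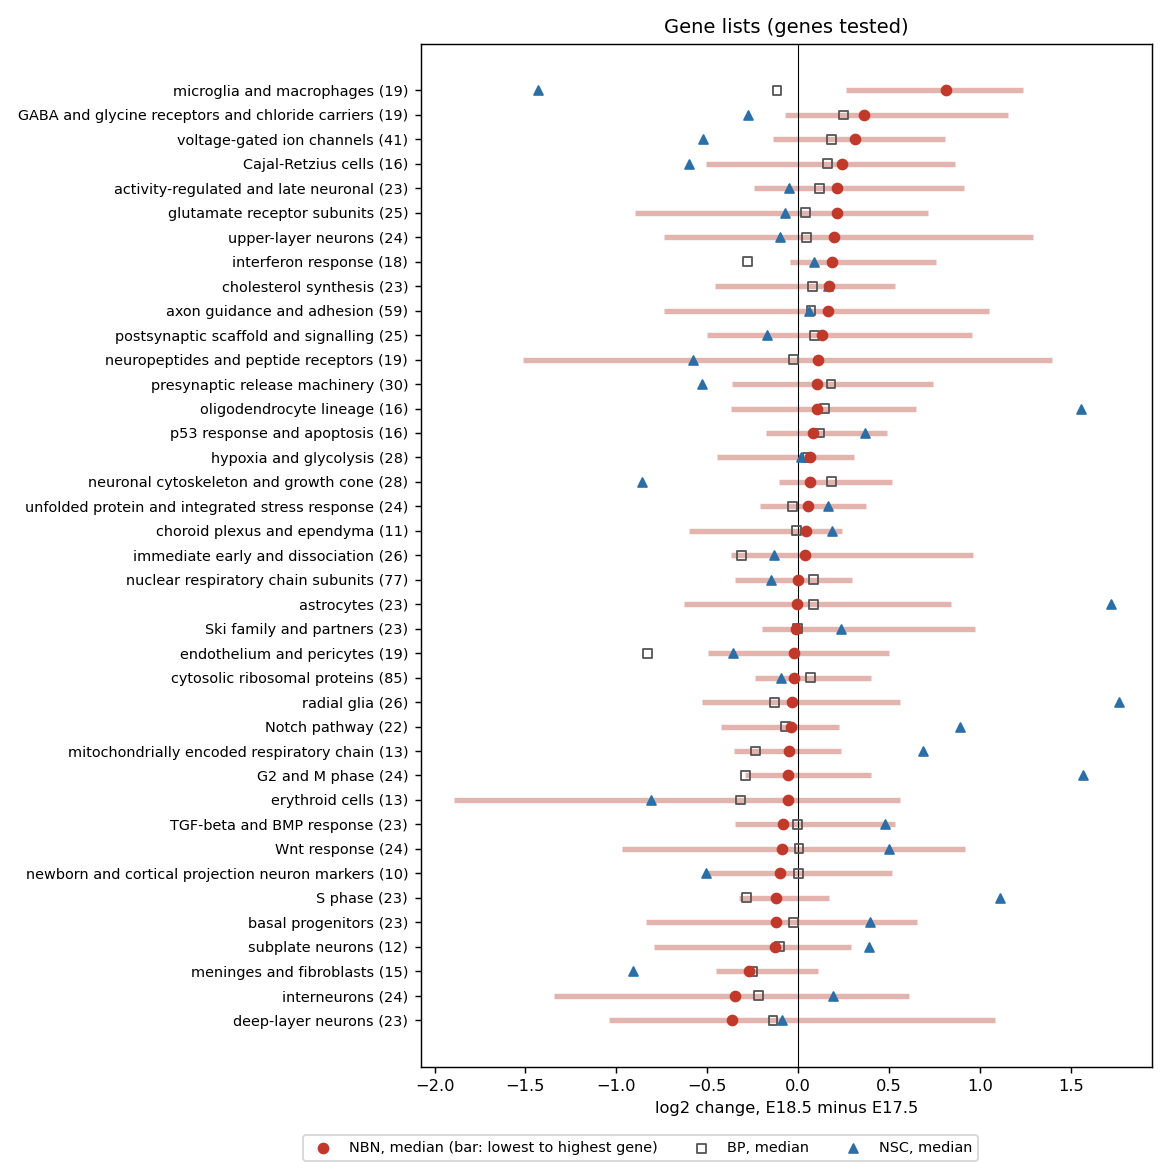
Median log2 change, E18.5 minus E17.5, of the genes tested in each list, for NBN (red, with a bar from the lowest to the highest gene), BP (squares) and NSC (triangles). In NBN the microglia and macrophage list has a median of 0.82 and the deep-layer list of -0.36 (-0.15 without E17.5 replicate 1), while in NSC the medians of radial glia (1.77) and of G2 and M phase (1.57) exceed 1.

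Genes of other cell types varied between libraries. All 19 microglia and macrophage genes tested had a positive change (range 0.26 to 1.24, median 0.82), 0 were called in limma and 6 had an unadjusted p under 0.05, beside 3.06% of all genes. When leaving out 1 library, that count was 2 to 13, the median 0.57 to 1.10, and all changes stayed positive. Mrc1, the mannose receptor of macrophages, was at 10.6, 13.3 and 11.3 TPM at E18.5, against 2.29, 5.55, 3.14 and 8.38 TPM at E17.5 (1.24 ± 0.37, adjusted p = 0.53), without overlap. The list summed to 222, 256 and 189 TPM at E18.5, against 68.0, 158, 86.9 and 227 TPM at E17.5, so E17.5 replicate 4 lay within the E18.5 range. In bulk libraries, fewer cells of a type and less RNA per cell cannot be told apart. Hbb-bs, a haemoglobin gene of red blood cells, was at 203, 212 and 86.4 TPM at E18.5, against 177, 935, 482 and 1321 TPM at E17.5 (-1.87 ± 1.06, adjusted p = 0.999), with 2 of the E18.5 libraries inside the E17.5 range. Reln, secreted by Cajal-Retzius cells, was at 180.5, 180.2 and 174 TPM at E18.5, against 116, 124, 130.4 and 124 TPM at E17.5, without overlap but not called (0.53 ± 0.39), and the 16 Cajal-Retzius genes had a median of 0.24. Lists of endothelium (median and its range when leaving out 1 library -0.020, -0.16 to 0.081), meninges (-0.27, -0.39 to -0.12), choroid plexus (0.043, -0.18 to 0.14) and the oligodendrocyte lineage (0.10, 0.021 to 0.21) had 0 calls. Aqp4, of astrocytes, was at 0.185 to 0.467 TPM at E18.5, against 0.169 to 1.14 TPM at E17.5, and Sox10, of oligodendrocytes, at 0.284 to 0.464 TPM at E18.5, against 0.335 to 1.06 TPM at E17.5. The part of these cells in the values of Rasgrf2 and Rgs16 was not tested.

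**Figure D4:**
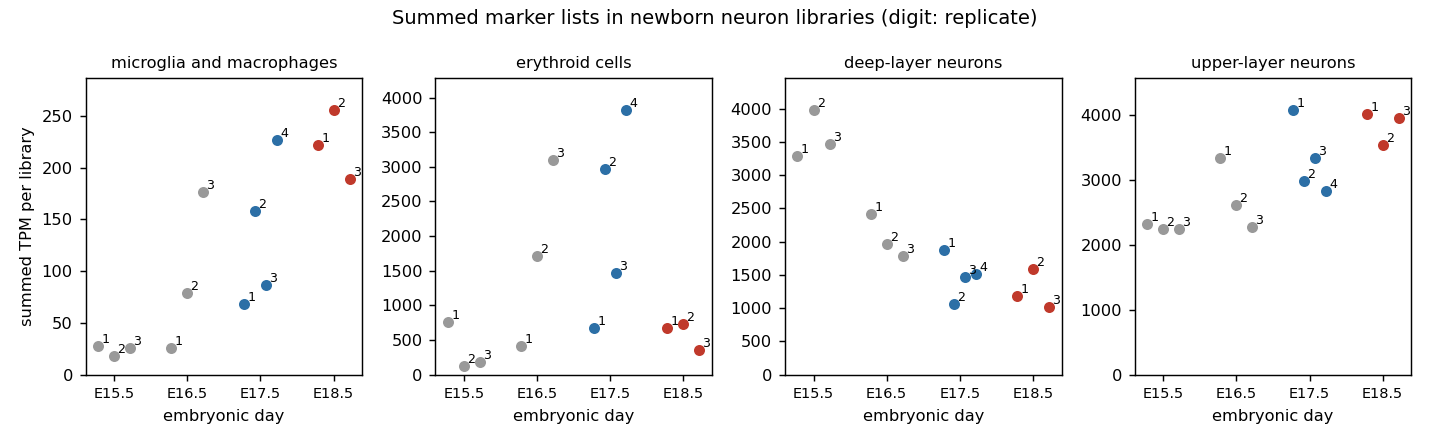
Summed TPM of 4 marker lists in each newborn neuron library by embryonic day, with the replicate number beside each point, E18.5 in red and E17.5 in blue. Microglia and macrophage sums are 189 to 256 TPM at E18.5, against 68.0 to 227 TPM at E17.5, and the deep-layer sums of these days overlap.

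The change between the days was then set against that in other cell types by testing the difference of the changes. Against BP, which had 1 gene higher and 1 lower at E18.5 by itself (0.00657% each), no gene passed in limma (0 higher and 0 lower, 0%), and 1.21% of genes had a positive and 0.249% a negative difference at an unadjusted p under 0.05. Against NSC, the change of 305 genes was more positive in NBN (2%) and that of 856 genes more negative (5.62%), while NSC alone had 1149 genes higher (7.54%) and 284 lower (1.86%) at E18.5. By adjusted p alone NSC had 21.7% higher and 8.69% lower, and the differences were 3.96% and 9.82%. The 4 Y-linked genes tested had a median log2 change of 1.88 in NSC (1.52 to 2.28), against 0.011 in NBN. Their median difference was -1.80, with 0 called, so sex was not shown to be matched between the NSC days. None of the 10 genes with the largest differences was called in NBN. Aldh1l1, an astrocyte enzyme of folate metabolism, was at 3.10, 1.53 and 1.77 TPM at E18.5, against 2.31, 3.12, 4.16 and 6.11 TPM at E17.5 in NBN, and at 54.2 to 140.2 TPM at E18.5, against 14.2 to 22.1 TPM at E17.5 in NSC (difference -3.12 ± 0.41, adjusted p = 7.1e-07 in limma). Hgf, a growth factor, was at 0.0310 to 0.405 TPM at E18.5, against 0.0782 to 0.329 TPM at E17.5 in NBN, and at 8.04 to 20.9 TPM at E18.5, against 0.330 to 1.59 TPM at E17.5 in NSC (difference -2.98 ± 0.24, adjusted p = 5.7e-13). In both genes NBN stayed low on both days and the NSC ranges did not overlap. Hepacam, a glial adhesion gene (-2.82), Pdgfra, the receptor of oligodendrocyte precursors (-2.76), and Gpr17, of maturing oligodendrocytes (-2.67), were the other large negative differences.

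By list, negative differences were called for 20 of 24 genes of G2 and M phase and 14 of 23 of S phase. They were called for 17 of 26 of radial glia, 15 of 23 of astrocytes and 9 of 16 of the oligodendrocyte lineage. Each list had 0 positive differences. Over all genes, 5.62% had a negative and 2% a positive difference. NSC alone had 24, 15, 22, 16 and 10 of these genes higher at E18.5, beside 7.54% of all genes. Without NSC E18.5 replicate 3 the negative differences numbered 12, 9, 16, 11 and 8. Over all genes they then numbered 519, against 856 with all libraries. Without NSC E18.5 replicate 2 those of S phase numbered 9, beside 612 over all genes. An alternative chosen after the data were seen put NSC of E16.5 in place of E17.5. The negative differences by list then numbered 24, 15, 20, 18 and 10, beside 1095 over all genes. With a replicate block there were 0 in each list and 0 over all genes.

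Positive differences included neuronal genes that fell in NSC. Tubb3 had a difference of 1.11 ± 0.35 and Reln of 2.76 ± 0.58 (adjusted p = 0.027 and 0.00096 in limma), with NSC changes of -1.17 and -2.24. Crym, a thyroid hormone-binding protein of deep-layer neurons, was at 75.6, 114 and 85.4 TPM at E18.5, against 51.7, 59.4, 99.5 and 83.7 TPM at E17.5 in NBN, and at 1.01 to 51.8 TPM at E18.5, against 18.7 to 92.6 TPM at E17.5 in NSC (difference 3.08 ± 0.96). Of the 41 voltage-gated channel genes 9 had a positive difference, beside 2% of all genes. That count was 18 without NSC E18.5 replicate 1, 2 without NSC E18.5 replicate 2, 2 without NSC E18.5 replicate 3 and 4 without NSC E17.5 replicate 1. Lyz2 (3.4), F13a1 (2.91), Lyve1 (2.82) and Pf4 (2.77), genes of macrophages, had the other large positive differences, beside 15 of 19 genes of the microglia and macrophage list. That count was 1 without NSC E17.5 replicate 1, 3 without NSC E18.5 replicate 3, 5 without NSC E18.5 replicate 2, 9 without NBN E17.5 replicate 1 and 0 with NSC of E16.5. Over all genes the positive differences numbered 74 without NSC E18.5 replicate 3, 93 without replicate 2, 791 without replicate 1 and 171 without NSC E17.5 replicate 1. The mitochondrial sum was 99416 TPM in NSC E18.5 replicate 1, against 74703 TPM in replicate 2 and 68592 TPM in replicate 3. At NSC E17.5 it was 51054 to 63770 TPM, and its part in these counts was not tested. Under quantile scaling 514 differences were positive and 761 negative, a positive share of 40.3% beside 26.3%.

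**Figure D5:**
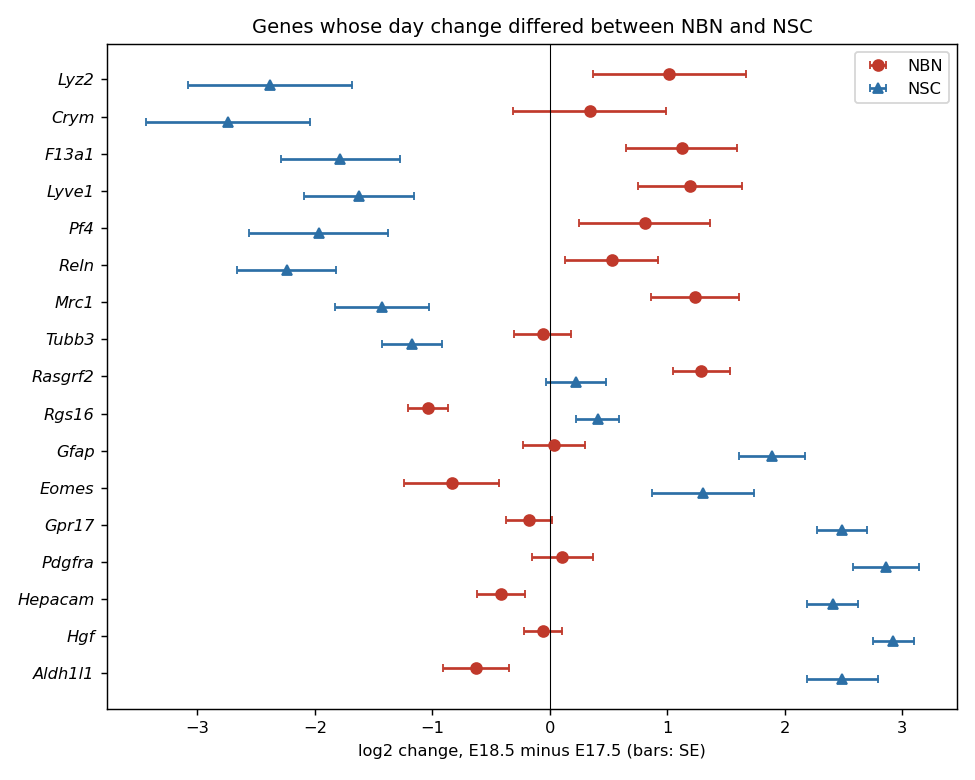
Log2 change, E18.5 minus E17.5, with SE bars, in NBN (red circles) and NSC (blue triangles) for 17 genes whose changes differed. Rasgrf2 (1.29 in NBN, 0.22 in NSC) and Rgs16 (-1.04 in NBN, 0.41 in NSC) were called in NBN, and the other genes, such as Aldh1l1 (-0.63 in NBN, 2.49 in NSC), were called in NSC.

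Earlier steps in newborn neurons had more calls. From E15.5 to E16.5, 77 genes rose (0.506%) and 36 fell (0.236%), and from E16.5 to E17.5, 5 rose (0.0328%) and 3 fell (0.0197%). The 5 were Rasgrf2, Dkk3, Lmo4, a LIM-only factor, Fat1, a giant cadherin, and Cobl, an actin nucleator, and the 3 were Rgs16, Rgs8 and Zfp521. These 8 genes are named as all those called, after their values were seen. Lmo4 had a log2 change of 1.06 ± 0.17 in that step and was at 486, 478 and 458 TPM at E18.5, against 429, 297, 391 and 327 TPM at E17.5 (0.41 ± 0.17, adjusted p = 0.999 in limma). From E16.5 to E18.5, 91 genes rose (0.597%) and 43 fell (0.282%), and from E15.5 to E18.5, 531 rose (3.49%) and 212 fell (1.39%). Neighbouring steps share the libraries of a day.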

How the data were processed

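RNA of sorted cells was extracted with TRIzol, and TruSeq libraries were read as single ends of 50 bases, per the labels' protocols. The deposited values are TPM per gene, quantified by the authors with kallisto 0.43.0. The submitters' processing notes list both GRCm38.p2 and mm10. No read counts were used here, so depth is unknown and precision is set by how far libraries of a group differ. In limma 3.58.1 (R 4.3.3) a model with 19 group means and a variance trend was fitted to log2(TPM + 1) of all 63 libraries, over genes that reached 1 TPM in 3 or more libraries. A call needs an adjusted p (Benjamini-Hochberg, all genes tested) under 0.05 and a 2-fold change. The members and the 41 gene lists were chosen with earlier results of these data known. Lists are given by counts and medians. Named are up to 12 called genes in each direction with a mean of at least 10 TPM, called members of lists, the 5 largest called differences in each direction against BP and NSC, and a further set of marker genes, of which 1 is not reported here. Added after values were seen were 25 genes of smallest p with a mean of at least 5 TPM, and others marked so in the text. Alternatives were other pseudocounts, filters and scalings, library weights by limma's gene-by-gene method, the compared libraries only, a replicate block, a Y-linked covariate, calls by adjusted p alone, and leaving out each library. The model was run on simulated data with independent noise and the same spread per gene in all libraries. That simulation held no uneven and no paired libraries, so it does not test the model for these. Promoters and gene order are from RefSeq (GRCm38.p6).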

Additional observations from a re-analysis of the deposited data

Results flagged for a closer look

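At E17.5 the values of 3 genes lay far from the other E17.5 libraries, all in replicate 1, the library with the high mitochondrial level. They were Neurod6 at 1538 TPM, Epha6 at 4.97 TPM and Csmd1 at 4.72 TPM, out of 48 genes examined, and chance gives about 1 such group in 20. Without that library the log2 changes were -0.014 for Neurod6, 0.91 for Epha6 and 0.78 for Csmd1, beside -0.17, 0.77 and 0.61 with it.

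Of 48 named genes, 20 changed differently from E17.5 to E18.5 in newborn neurons and neural stem cells by the interaction test in limma. Over all genes, 2% had a positive and 5.62% a negative difference. Of the 20, 5 in each direction were named for their large differences in this same test. The count is therefore not a result about the named genes. The difference, NBN minus NSC on the log2 scale, was positive for Lyz2 (3.4), Crym (3.08), F13a1 (2.91), Lyve1 (2.82), Pf4 (2.77), Reln (2.76), Mrc1 (2.67), Epha6 (1.34), Tubb3 (1.11) and Rasgrf2 (1.07). It was negative for Aldh1l1 (-3.12), Hgf (-2.98), Hepacam (-2.82), Pdgfra (-2.76), Gpr17 (-2.67), Eomes (-2.14), Gfap (-1.85), Rgs16 (-1.44), Zfp521 (-1.43) and Rgs8 (-1.29). These cell types came from different reporter lines, so line and cell type cannot be told apart.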

How the results depend on the processing

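Calls in newborn neurons (1 higher, 1 lower in limma) were 0 and 0 at a pseudocount of 5, with only the libraries compared and with a replicate block, beside 466 and 172 genes at an unadjusted p under 0.05 in all libraries. They were 0 higher at a pseudocount of 0.1 and with a mean of at least 5 TPM, 2 higher with quantile scaling and with adjusted p alone, and 18 and 8 with library weights, which gave E17.5 replicate 1 a weight of 0.34. The filter on a mean of at least 5 TPM, taken over all 63 libraries, removed Rasgrf2 before testing. Leaving out 1 library gave 0 to 1 higher and 0 to 3 lower, the 3 without E18.5 replicate 2. With only the libraries compared and without E17.5 replicate 1, a choice made after the data were seen, 1 gene was higher and 1 lower, and neither was Rgs16 (adjusted p = 0.063) or Rasgrf2 (0.072). For BP (1 and 1) counts were 0 and 0 at pseudocounts of 0.1 and 5, with a mean of at least 5 TPM, with only the libraries compared and with the block, 3 and 81 with weights, 2 higher with adjusted p alone, and 0 to 1 in each direction when leaving out 1 library. For NSC (1149 and 284) they were 571 and 120 at a pseudocount of 5 and 3301 and 1324 with adjusted p alone, and 541 lower with quantile scaling, 684 with weights, 68 with only the libraries compared and 76 with the block. Leaving out 1 library gave 838 to 1456 higher and 68 to 679 lower in NSC. The difference from BP gave 1 higher with no filter, 44 with weights, and 0 to 1 higher and 0 to 0 lower when leaving out 1 library. The difference from NSC (305 and 856) gave 167 and 512 at a pseudocount of 5, 603 and 1495 with adjusted p alone, 0 and 0 with the replicate block, and 184 higher with a mean of at least 5 TPM, 514 with quantile scaling, 946 with weights, 102 with only the libraries compared and 159 with NSC of E16.5. Leaving out 1 library gave 74 to 791 higher and 519 to 1179 lower. The cause was not tested. Replicate numbers have no stated meaning, and same-numbered libraries of the 2 days had correlations of their deviations of 0.27, -0.024 and 0.25, so replicate 2 did not go best with its own number. Between same-numbered NBN and BP libraries of 1 day this correlation was over 0.1 in 6 of 7 pairs (-0.15 to 0.60), and 5 of the 7 NBN libraries correlated best with their own number, while for NSC it was over 0.1 in 1 of 6 pairs. With a replicate block by day and number, added after the data were seen, the difference from BP gave 0 higher and 0 lower (323 and 343 genes at an unadjusted p under 0.05) and that from NSC 0 and 0 (1015 and 1945). Without the pair of E18.5 replicate 1, the difference from NSC in this fit gave 522 higher and 855 lower. It gave 0 and 0 without any other single pair.

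Among named genes, changes near 0 that were not called turned sign. Gfap was at -0.0092 with a pseudocount of 5, -0.038 with quantile scaling, -0.12 with weights and -0.12 with only the libraries compared and without E17.5 replicate 1, and ranged from -0.13 to 0.33 when leaving out 1 library. Ski was at 0.074 with weights and 0.091 with only the libraries compared and without E17.5 replicate 1, and ranged from -0.083 to 0.091. Hes5 was at -0.075 in that fit and ranged from -0.075 to 0.26. Tubb3 was at 0.038 with quantile scaling. Gpr17 was at 0.012 with the block and ranged from -0.28 to 0.012. Leaving out 1 library gave -0.019 to 0.26 for Pdgfra, -0.019 to 0.33 for Mki67 and -0.19 to 0.030 for Hgf.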

Other observations

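With library weights, which counted E17.5 replicate 1 least among these libraries, the 18 genes called higher at E18.5 included the neuronal genes Gabra2, Cck, Tshz2, Met, Zbtb20 and Zfp385b and the macrophage and microglia genes Lyve1, P2ry12, Mrc1 and F13a1. The 8 called lower included Rgs16, Rgs8, Npy, the Wnt modulator gene Sfrp2, and the erythroid genes Hbb-bs, Hbb-bt and Alas2. P2ry12, a receptor of microglia, was at 4.79, 5.02 and 2.04 TPM at E18.5, against 1.57, 1.59, 1.05 and 1.21 TPM at E17.5 (log2 change 1.02 ± 0.23 and adjusted p = 0.11 in limma without weights). These genes were named after their values were seen.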
